A study of Mus musculus with 4 samples.

Results

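The histone gene clusters described here comprise 67 mouse protein-coding genes, out of 21887, whose RefSeq symbols follow the naming of the clustered histone genes (H1f, H2ac, H2bc, H3c or H4c with a number). They were chosen by symbol alone, without use of any measured value, and 3 further matching symbols are pseudogenes and were left out. Of the 67 genes, 53 lie on chromosome 13, 10 on chromosome 3 and 4 elsewhere. Accessible regions, called islands, were taken as histone islands when their nearest protein-coding gene end, within 50 kb, belonged to one of these genes. This gave 35 of 16584 islands. The one farthest from its gene lay 12644 bp away, and no island with a histone gene as its nearest lay beyond the limit.

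The symbols do not all name replication-dependent genes. H1f0 and H1f10 are replacement linker histones made outside S phase, H1f7 and H1f8 are germ cell linker histones, and H1f6, H2ac1 and H2bc1 are testis forms. The 4 genes outside chromosomes 3 and 13 are H1f0, H1f7, H1f8 and H1f10.

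The islands come from DNase-seq, an assay that reads out where the nuclease DNase I can cut chromatin. It was done on lymphoid tissue inducer (LTi) cells, innate lymphocytes that prompt the formation of lymphoid organs, sorted from Peyer's patches of C57BL/6 mice. There were 2 Tcf7+/+ libraries and 2 Tcf7-KO libraries, in which a Cre recombinase removes floxed Tcf7, which encodes the transcription factor TCF-1. Each library held 300 cells with CD127 and CCR6 on the surface and without lineage markers, KLRG1, NK1.1 or NKp46, cut with 0.3 U of DNase I for 5 minutes. No source used here gives ages, the number of mice behind a library, or whether the Tcf7+/+ mice carried the Cre. The data are 1 table with a peak-side and a control-side read count for each island. No header or label ties either side to a genotype, so the 2 genotypes are not compared, and there are no replicate values.

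Over all islands the table holds 425134 peak-side and 645087 control-side reads, and every island has at least 8 peak-side reads. A gene without an island is therefore not shown to be closed. A fold is peak-side reads over control-side reads times 0.345, the factor of the deposited table, given with an exact (Clopper-Pearson) 95% interval that covers counting error only. Of 13 LTi marker genes, 11 had an island, beside 53.9% of all protein-coding genes, while Ccr6 and Cd4 were not the nearest gene of any. Markers of other cells had islands at 1 of 8 T cell genes, 3 of 7 B cell genes, 1 of 5 NK and ILC1 genes, 0 of 4 myeloid genes and 4 of 4 epithelial and stromal genes. With an FDR under 0.05 in the authors' deposited table, 10 of the 13 LTi genes had an island, beside 46.3% of all protein-coding genes. By that measure the NK and ILC1 count was 0 of 5, and the counts of the other lists were unchanged. The part of other cells in the histone values was not tested.

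Replication-dependent histone genes supply the histones that package newly copied DNA, and their transcription peaks in S phase. The genes are short, mostly lack introns and stand in clusters, and their mRNAs end in a stem-loop instead of a poly(A) tail. Core histones H2A, H2B, H3 and H4 form the nucleosome, while the linker histone H1 binds where DNA enters and leaves it. The clusters gather in a nuclear body, the histone locus body, where the factor NPAT acts. Many H2A and H2B genes stand head to head and share the DNA between their starts.

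The promoter windows below are shown because the islands lay on the starts of these genes. Each runs from 250 bases before to 50 after an annotated start, 5′ to 3′ on the gene's strand, from RefSeq on GRCm38.p6 (the assembly mm10 names). The first 4 belong to the H1, H4, H3 and H2A genes that, among those with a window, lay in the island with most peak-side reads for their class. H2bc12, chosen after its values were seen, lies in one of the narrowest histone islands and has an octamer. Capitals mark matches, on either strand, to the TATA box (TATAAA), the CCAAT box (CCAAT), the octamer core (TTTGCAT), an E2F core (TTGGCGC) and the H1 box (AAACACA). On the opposite strand a CCAAT box reads ATTGG, which can overlap an E2F core. The 5 windows hold no match to the E2F core or the H1 box.
H1f1, chr13:23763418-23763717, plus strand: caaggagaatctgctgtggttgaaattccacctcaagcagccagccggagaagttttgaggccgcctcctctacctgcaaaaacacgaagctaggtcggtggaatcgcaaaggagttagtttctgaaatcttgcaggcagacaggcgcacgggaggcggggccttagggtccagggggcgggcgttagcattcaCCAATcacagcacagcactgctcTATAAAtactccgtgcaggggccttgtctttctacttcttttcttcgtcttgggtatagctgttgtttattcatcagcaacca
H4c1, chr13:23761200-23761499, minus strand: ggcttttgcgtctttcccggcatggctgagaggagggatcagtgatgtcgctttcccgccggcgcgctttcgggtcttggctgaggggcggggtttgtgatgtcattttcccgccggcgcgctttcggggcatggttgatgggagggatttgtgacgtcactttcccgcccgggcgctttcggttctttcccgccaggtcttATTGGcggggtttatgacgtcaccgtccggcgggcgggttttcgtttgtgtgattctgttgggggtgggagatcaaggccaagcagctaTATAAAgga
H3c10, chr13:21717378-21717677, plus strand: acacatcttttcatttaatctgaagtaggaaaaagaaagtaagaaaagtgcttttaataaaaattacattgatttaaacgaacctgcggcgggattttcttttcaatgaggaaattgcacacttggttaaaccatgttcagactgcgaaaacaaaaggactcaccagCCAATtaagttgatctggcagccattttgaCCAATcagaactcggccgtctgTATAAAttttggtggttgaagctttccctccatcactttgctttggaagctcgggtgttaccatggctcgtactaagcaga
H2ac13, chr13:21716162-21716461, plus strand: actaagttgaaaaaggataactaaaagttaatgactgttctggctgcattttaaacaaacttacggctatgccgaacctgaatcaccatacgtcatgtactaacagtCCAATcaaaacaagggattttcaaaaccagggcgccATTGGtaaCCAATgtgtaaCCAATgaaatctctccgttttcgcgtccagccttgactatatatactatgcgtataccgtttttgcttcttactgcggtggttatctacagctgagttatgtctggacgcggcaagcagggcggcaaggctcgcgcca
H2bc12, chr13:22035571-22035870, plus strand: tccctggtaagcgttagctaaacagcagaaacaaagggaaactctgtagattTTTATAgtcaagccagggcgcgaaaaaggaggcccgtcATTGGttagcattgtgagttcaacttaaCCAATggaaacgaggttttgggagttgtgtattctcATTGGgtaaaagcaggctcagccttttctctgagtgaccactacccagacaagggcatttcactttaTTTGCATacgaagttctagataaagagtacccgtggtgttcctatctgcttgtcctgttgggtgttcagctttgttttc

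In H1f1 the TATA box began 33 bases and the CCAAT box 56 bases before the start. H3c10 had its TATA box 31 bases before the start and CCAAT boxes 53 and 83 bases before it. H2ac13 had 4 CCAAT boxes, in 3 cases on the gene's own strand, and no match to TATAAA. Its window shares 272 bases with that of H2bc13, which runs the other way. The H2bc12 octamer began 29 bases before the start, while its match to the TATA box lay 198 bases before the start, on the opposite strand. In H4c1 the TATA box lay 41 bases after the annotated start.

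The table of windows holds 62 of the 67 genes, and H3c7, H2bc4, H3c1, H2bc21 and H4c14 are not in it. The counts that follow take a match on either strand at any place in the window, so a match need not be a working promoter element. A match to the TATA box was found in 34 of the 62 windows (54.8%), against 13.3% of 17492 protein-coding genes with 1 window each. A CCAAT box was found in 51 (82.3%), against 39.0%. It was in each H2A, H2B and H3 window (17, 14 and 10) but in 3 of 11 H4 windows. The octamer, classically linked to H2B promoters, was in 6 of 14 H2B and 6 of 17 H2A windows, and in 1 other, that of H4c3 (13 of 62, or 21%, against 4.16%). The H1 box was in 5 of 10 H1 windows, namely those of H1f2, H1f3, H1f4, H1f5 and H1f6, and in 9 windows in all (14.5%, against 6.13%). The E2F core was in 2 windows (3.23%, against 3.17%). Head-to-head neighbours share most of their bases, so such windows are not independent. The median GC content was 45.7% in the histone windows and 56.3% over all genes.

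Of the 67 histone genes, 42 (62.7%) were the nearest gene of at least 1 island, beside 53.9% of all protein-coding genes. The share was not tested, since neighbouring histone genes take the same island. There were 22 islands with 1 histone gene, 10 with 2 and 3 with 3. By annotated starts, 37 of 62 genes (59.7%) had a start inside an island, beside 46.3% of all genes, and these starts lay in 26 islands. From the start, islands reached a median of 1133.5 bp upstream (interquartile range 750.25 to 1783) and 933.5 bp downstream (434.5 to 1433.5), over 38 starts of 37 genes.

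**Figure D1:**
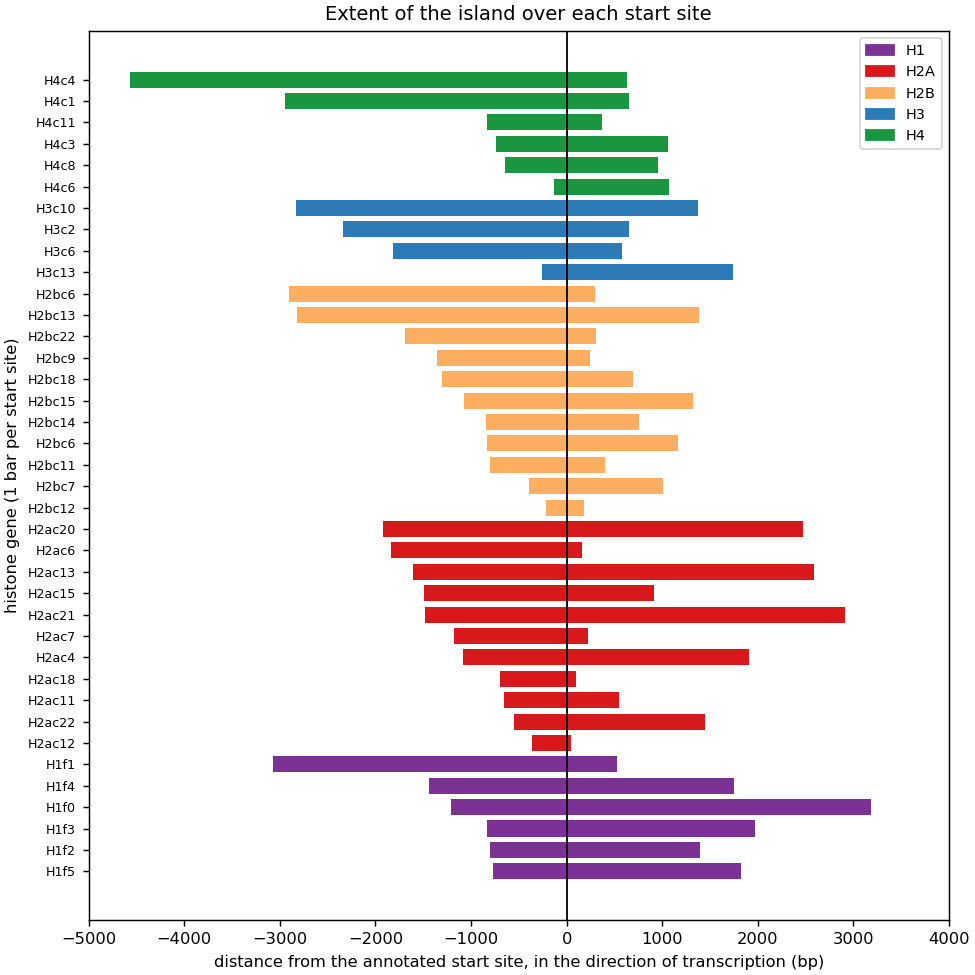
Extent of the island over each of the 38 annotated histone gene starts that lay inside one, in bp from the start in the direction of transcription, coloured by histone class. Bars reach a median of 1133.5 bp upstream and 933.5 bp downstream, and the same island is drawn once for each start it holds.

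The 35 histone islands held 709 peak-side and 1098 control-side reads, 0.167% and 0.170% of the reads of all islands. Their pooled fold was 1.87 (1.70 to 2.06), beside 1.91 (1.90 to 1.92) for all islands. The median fold was 1.93 (range 1.05 to 3.52), beside 2.01 for all islands. Of the 35, 31 had an FDR under 0.05 in the authors' deposited table, where 82.3% of all islands do, so this count is close to the background. Of the 26 within 1 kb of a gene end, 23 were called, beside 80.8% of all such islands. These 26 had a pooled fold of 1.87 (1.68 to 2.08), beside 1.83 (1.82 to 1.84) for all such islands, and a median fold of 1.91, beside 1.86. Their medians were 17 peak-side and 29 control-side reads, beside 23 and 37. In the authors' deposited table an FDR under 0.01 was reached by 19 of the 35, beside 64.2% of all islands. The level of every fold rests on the deposited factor. With the control side set instead to the total of all islands' reads, or to a median ratio of 1, 0 of the 35 had a recomputed Poisson FDR under 0.05, beside 9.19% and 6.61% of all islands, and the pooled fold was 0.980 and 0.933. These scalings lower each log2 fold by 0.93 and 1.01, so only the comparison of histone islands with other islands keeps its meaning. At the deposited factor, the counting intervals of 18 of the 35 lay wholly above 1, beside 9572 of all 16584 islands. The median histone island held 17 peak-side and 26 control-side reads, beside 18 and 27 for all islands, and was 2000 bp wide, beside 1800 bp.

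The linker histone genes H1f1 to H1f5, which encode the main somatic H1 proteins, each had an island over the start. The island with the most reads of any histone gene covered the ends of H1f1, H3c1 and H4c1 (chromosome 13, 23760601 to 23764200), with 55 and 86 reads, a fold of 1.85 (1.3 to 2.63). The one over H1f2 (23738001 to 23740200) had 34 and 38 reads, a fold of 2.60 (1.58 to 4.23). H1f4, together with the outer of the 2 annotated starts of H2bc6, had 29 and 60 reads over 3200 bp (23620801 to 23624000), and its fold of 1.40 (0.868 to 2.22) was among the 4 smallest. H1f5 had 16 and 22 reads (fold 2.11, 1.04 to 4.20). H1f3 had 12 and 23 reads, and at a fold of 1.51 (0.686 to 3.17) it was not called in the authors' deposited table. Among these 5 genes peak-side reads ran from 12 to 55, but the counting intervals of all 5 folds overlap. In the authors' deposited table the FDRs were 5.34e-05 for the island of H1f1, 3.93e-06 for that of H1f2 and 0.0399 for that of H1f4. The testis gene H1f6 was the nearest gene of no island, and its start lay 1590 bp from the closest, that of H4c3.

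The replacement gene H1f0 on chromosome 15 (79028212 to 79030504) had 2 islands. The one over the gene (79027001 to 79031400), which also reaches an end of the enzyme gene Gcat, had 40 and 74 reads, a fold of 1.57 (1.04 to 2.33). The other, 8612 bp away (79017601 to 79019600), had 11 and 13 reads, a fold of 2.45 (0.996 to 5.94). Their FDRs in the authors' deposited table were 0.00509 and 0.00422. H1f7, H1f8 and H1f10 had none.

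Among genes with a window, H2A and H2B genes stood head to head in 9 pairs with 164 to 281 bp between their annotated starts. H2bc4 and H2bc21 have no window. The neighbours H2ac6 with H2bc4 and H2ac20 with H2bc21 could therefore not be counted as pairs, and each of these 2 couples had an island in common. H2ac24, which ends at 21833475, and H4bc24, which begins at 21833743, were not counted either, because H4bc24 is outside the symbol rule. Its window is identical to that of H2bc23, and neither H2ac24 nor H4bc24 had an island. In 6 of the 9 pairs 1 island covered both starts. Over all protein-coding genes, 586 of 662 pairs within 1 kb (88.5%) were covered in this way, and the difference was not tested. The 2 largest folds of any histone island were at such pairs. That of H2ac11 and H2bc11 (22042401 to 22043600) had 17 and 14 reads, a fold of 3.52 (1.63 to 7.72). That of H2ac12 and H2bc12 (22035601 to 22036000) had 12 and 10 reads in 400 bp and a fold of 3.48 (1.38 to 8.99). It overlaps the H2bc12 window printed above. The pair H2bc13 and H2ac13 shared an island with H3c10 (21714801 to 21719000), with 31 and 32 reads, a fold of 2.81 (1.66 to 4.76). H2ac15 with H2bc15 and H2ac22 with H2bc22 had 17 and 18 and 15 and 18 reads, with folds of 2.74 (1.33 to 5.63) and 2.42 (1.13 to 5.08). The pair H2bc7 and H2ac7 had 14 and 26 reads and the smallest fold of the 6 (1.56, 0.754 to 3.10). In the authors' deposited table the FDRs were 2.21e-05 for the H2ac11 pair, 0.00023 for the H2ac12 pair, 2.52e-06 for the H2ac13 pair and 0.000288 for the H2ac15 pair.

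The counted pairs without an island were H2bc23 with H2ac23, H2ac8 with H2bc8, and the testis pair H2bc1 with H2ac1. H2ac8 and H2bc8 start 1981 and 1801 bp from the island over H2bc7 and H2ac7. The testis pair stands apart from the other clusters (23933725 to 23934913), 19356 bp or more from the closest island.

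Other islands of H2A and H2B genes lay outside the pairs counted above. H2ac6 and H2bc4, at the same place (23683801 to 23685800), had 12 and 33 reads and the smallest fold of all 35 islands (1.05, 0.496 to 2.10), and the island, with an FDR of 0.362, was not called in the authors' deposited table. H2bc6, whose annotated gene is long, had an island over its inner start (23584801 to 23586800) with 16 and 20 reads, a fold of 2.32 (1.12 to 4.71). H2bc14 had 13 and 21 reads (fold 1.80, 0.826 to 3.76). H2ac4 shared an island with H3c2, with 12 and 18 reads (fold 1.93, 0.850 to 4.24). H2bc9 shared one with H3c7, with 17 and 18 reads (fold 2.74, 1.33 to 5.63). On their outer sides, H2bc13 had an island 4511 bp away with 23 and 41 reads (21709801 to 21711200, fold 1.63, 0.932 to 2.78), and H2bc11 one 5743 bp away with 29 and 38 reads (22049401 to 22051800, fold 2.21, 1.32 to 3.69). H2ac12 had 2 more, at 4322 and 7922 bp. The nearer had 19 and 41 reads, a fold of 1.34 (0.737 to 2.37), among the 4 smallest and not called in the authors' deposited table (FDR 0.0929), and the farther had 10 and 16 reads. The FDRs of the outer islands of H2bc13 and H2bc11 in the authors' deposited table were 0.0151 and 0.000168, and that of H2bc9 with H3c7 was 0.000288.

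H3 genes, which encode the core histone with the most modified tail, had islands at about the share of all genes. Of 12 such genes, 6 were the nearest of an island, beside 53.9% of all protein-coding genes, and 4 of 10 listed starts lay in one, beside 46.3%. The starts in an island were 11 of 17 for H2A, 10 of 14 for H2B, 6 of 11 for H4 and 5 of 6 for H1 on chromosomes 3 and 13. These differences were not tested. Only H3c6 (23561801 to 23564200, 25 and 47 reads, fold 1.54, 0.910 to 2.56) had an island assigned to no other gene, with an FDR of 0.0208 in the authors' deposited table. H3c10, H3c1, H3c2, H3c7 and H3c13 shared theirs with neighbours. H3c3, H3c4, H3c8, H3c11, H3c14 and H3c15 had none.

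Of 12 H4 genes, 7 had an island. H4c8, which stands at the edge of its cluster, had 4, the most of any histone gene, with 72 and 99 reads in all. The one over the gene (23530401 to 23532000) had 32 and 40 reads, a fold of 2.32 (1.41 to 3.79), with an FDR of 4.36e-05 in the authors' deposited table. The other 3 lay 4244, 5844 and 12644 bp away, with 13, 10 and 17 peak-side reads. The first of these (23526401 to 23526800) was 400 bp wide and had the highest density of any histone island, 32.5 peak-side reads per kb, beside a median of 9.44. H4c3 (23697401 to 23699200) had 20 and 53 reads, a fold of 1.09 (0.620 to 1.86), next to the smallest, and at an FDR of 0.301 was not called in the authors' deposited table. H4c4 had the widest histone island, 5200 bp with 22 and 34 reads (23577001 to 23582200, fold 1.88, 1.05 to 3.30). H4c11 and H4c6 had 15 and 19 and 10 and 13 reads. H4c2, H4c9, H4c12, H4c17 and H4c18 had none.

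**Figure D2:**
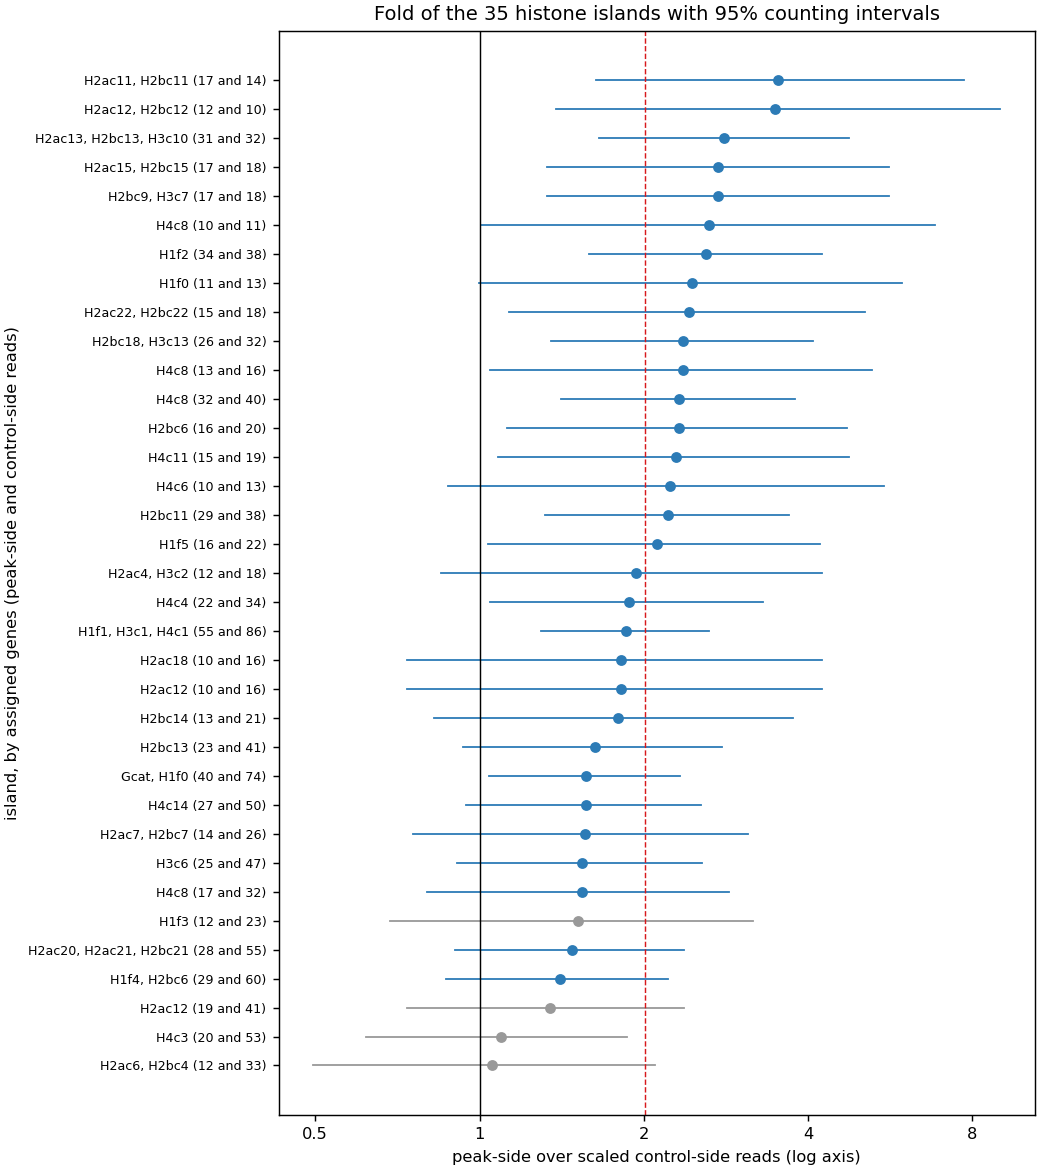
Fold of each of the 35 histone islands (points, log axis) with 95% counting intervals (lines), labelled by assigned genes and by peak-side and control-side reads. The dashed line is the median of all islands (2.01), grey marks the 4 islands not called in the authors' deposited table, and the folds run from 1.05 for H2ac6 with H2bc4 to 3.52 for H2ac11 with H2bc11.

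The smaller cluster on chromosome 3 (96219885 to 96270192) had 10 genes and 4 islands. They held 91 and 153 reads, for a pooled fold of 1.73 (1.32 to 2.25). One island covered H2ac21, H2ac20 and H2bc21 (96218401 to 96222800), with 28 and 55 reads, a fold of 1.48 (0.902 to 2.37). Those over H4c14 (96262001 to 96264600) and over H3c13 with H2bc18 (96268401 to 96270400) had 27 and 50 and 26 and 32 reads, with folds of 1.57 (0.943 to 2.55) and 2.36 (1.35 to 4.08). The fourth, over the start of H2ac18 (96244801 to 96245600), had 10 and 16 reads, a fold of 1.81 (0.735 to 4.25). H3c15, H2ac19 and H3c14, which lie on either side of it, had none. In the authors' deposited table the FDRs of the 4 islands were 0.0254, 0.0152, 0.000138 and 0.0328, in the order given.

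On chromosome 13, apart from the testis pair, the genes fell into 3 blocks, with gaps of more than 100 kb between them. The first, H2bc13 to H2ac24, had 17 genes and 7 islands, with 130 and 171 reads, a pooled fold of 2.21 (1.74 to 2.79). The second, H2ac12 to H2bc11, had 5 genes and 5 islands, with 87 and 119 reads (2.12, 1.59 to 2.82). The third, H4c8 to H1f1, had 29 genes and 17 islands, with 350 and 568 reads (1.79, 1.56 to 2.05). The intervals of the 3 blocks overlap. Together the 29 islands of these blocks had a pooled fold of 1.92 (1.72 to 2.13). The authors' deposited table calls 25 of them, near the 82.3% of all islands. With 2 kb on either side, the blocks held 4.93, 16 and 6.32 islands per 100 kb, beside 0.563 per 100 kb over chromosome 13. These rates rest on 6, 2 and 15 islands of any gene, since the outer islands lie beyond the 2 kb, and that of the second block on 2 islands in 12.5 kb. They take no account of gene density, with 17, 5 and 29 histone genes in 121.8, 12.5 and 237.4 kb. By gene, there were 35 islands for the 67 histone genes, beside 16584 islands for 21887 protein-coding genes. The 35 lie within 50 kb of a histone gene end, while the 16584 are all islands at any distance, so these are unlike measures. By the same measure, 62.7% of histone genes and 53.9% of all protein-coding genes had an island.

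**Figure D3:**
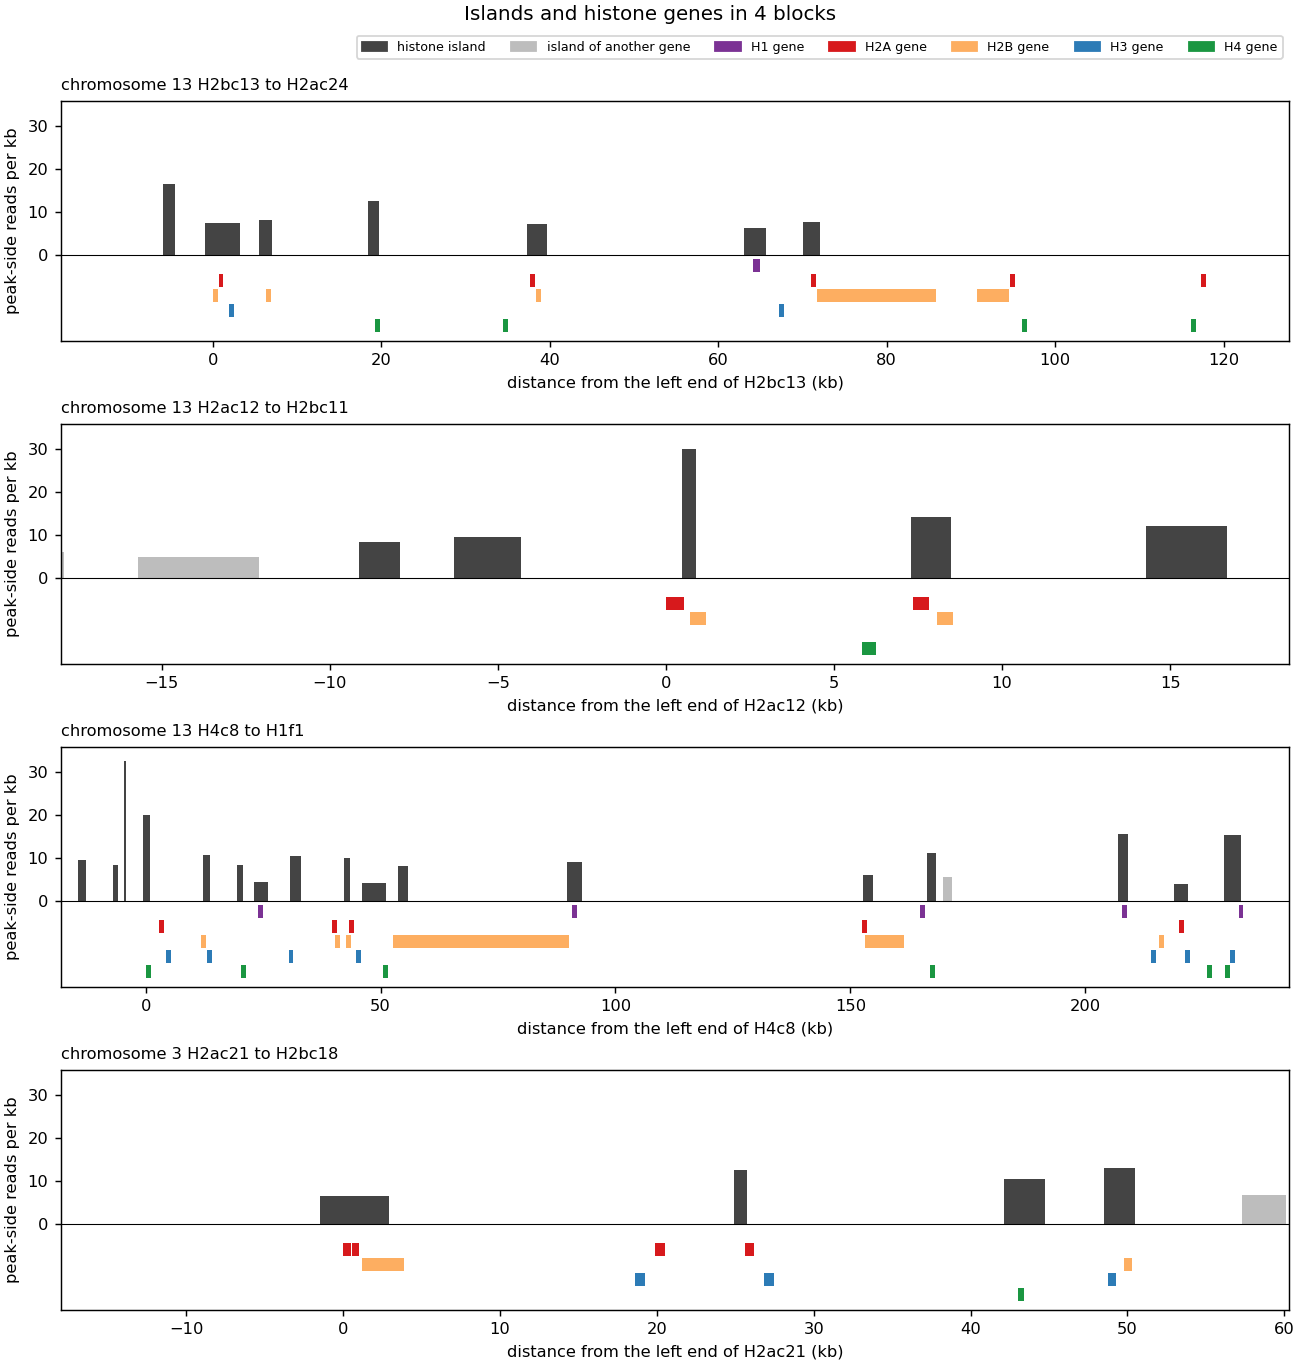
Islands (bars, peak-side reads per kb of island) above the histone genes (coloured boxes, 1 row per class) in the 3 blocks of chromosome 13 and the block of chromosome 3, in kb from the left end of the first gene. In the top panel no island stands to the right of the H2ac22 and H2bc22 island, over the last 5 genes of the block.

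Of the 25 histone genes without an island, 14 had a start within 5 kb of one (1039 to 4480 bp). Not every such island was called in the authors' deposited table, since that of H4c3, the closest to H1f6, had an FDR of 0.301. The other 11 lay farther away. In the first block, the 128.8 kb from the H2bc22 island to the next one, assigned to Zfp184, held no island, although H2bc23, H2ac23, H4c17, H4c18 and H2ac24 lie in it. The promoter windows of these 5 genes are near-copies of others. The shares of their 50-base stretches that recur in the window of another gene were 100% for H2bc23, 94.0% for both H4c17 and H4c18, 86.9% for H2ac23 and 73.3% for H2ac24. The window of H2bc23, shown because it is repeated in full and chosen after this was seen, is identical over its 300 bases to that of H4bc24, a neighbouring gene outside the symbol rule.
H2bc23, chr13:21810150-21810449, minus strand: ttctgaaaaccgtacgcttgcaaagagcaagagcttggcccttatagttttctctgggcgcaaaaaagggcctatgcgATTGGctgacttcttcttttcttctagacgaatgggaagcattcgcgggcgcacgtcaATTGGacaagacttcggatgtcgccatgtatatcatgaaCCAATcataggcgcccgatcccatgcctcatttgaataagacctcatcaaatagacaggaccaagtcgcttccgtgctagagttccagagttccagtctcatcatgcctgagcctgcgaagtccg

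The windows of H4c17 and H4c18 share an unbroken run of 285 bases. On chromosome 3, those of H3c14 and H3c15 share 231 bases and those of H2ac18 and H2ac19 share 219. Among histone genes whose start was not in an island, 9 of 25 had a recurring stretch. Among those whose start was, 2 of 37 did, namely H2ac18 and H4c11. No source used here says how reads that match several places were handled, so for these 11 genes neither an island nor its absence can be assigned with certainty to 1 copy. The part of these copies in the missing islands was not tested. Sequence outside the windows, and genes without a window, were not examined for copies. Unique placement is therefore not shown for the other histone islands either. The other 16 genes whose start was not in an island had no such recurrence in this table of windows. They include H3c3, H2bc3 and H4c2 as well as the germ cell genes H1f6, H1f7, H1f8, H2ac1 and H2bc1.

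The histone blocks of chromosome 13 are set among genes of other kinds. From Zkscan8 to Trim38, a stretch that holds these 3 blocks, there are 36 vomeronasal receptor genes and 8 olfactory receptor genes, which encode receptors of sensory neurons. None of these 44 had an island in the gene or within 1 kb of it, nor as its nearest gene, and the stretch of 1162.45 kb that holds the vomeronasal receptor genes had no island at all. Copies among these receptor genes were not examined, and how reads that match several places were handled is not known here either. Over the same region 36 of 51 histone genes (70.6%) had an island in the gene or within 1 kb, beside 52.9% of all protein-coding genes, though neighbouring histone genes share islands. Of the 12 remaining genes, among them the histone gene H4bc24, 7 (58.3%) had an island in the gene or within 1 kb. By the wider measure, 10 of the 12 were the nearest gene of an island. The 6 with the largest peak-side counts included Abt1, a basal transcription activator, with 44 and 80 reads in an island 5735 bp away (fold 1.60, 1.08 to 2.33). Btn1a1, a butyrophilin, had 30 and 60 reads in an island 9584 bp away (1.45, 0.903 to 2.28). Zfp322a, a zinc finger gene, had 27 and 41 reads in an island over its end (1.91, 1.13 to 3.18). Zfp184 and Pom121l2 had 19 and 22 and 19 and 37 reads, in islands 3853 and 5981 bp away, and Zkscan8 had 18 and 25, 6421 bp away. The island over an end of Abt1 had 33 and 82 reads (fold 1.17, 0.755 to 1.77) and was not called in the authors' deposited table. Those over ends of Btn1a1, Zfp184 and Zkscan8 had 11 and 11, 17 and 32, and 16 and 23 reads, and were called there. The 18 islands of these neighbours had a pooled fold of 1.72 (1.5 to 1.97), and its interval overlaps that of the histone islands.

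**Figure D4:**
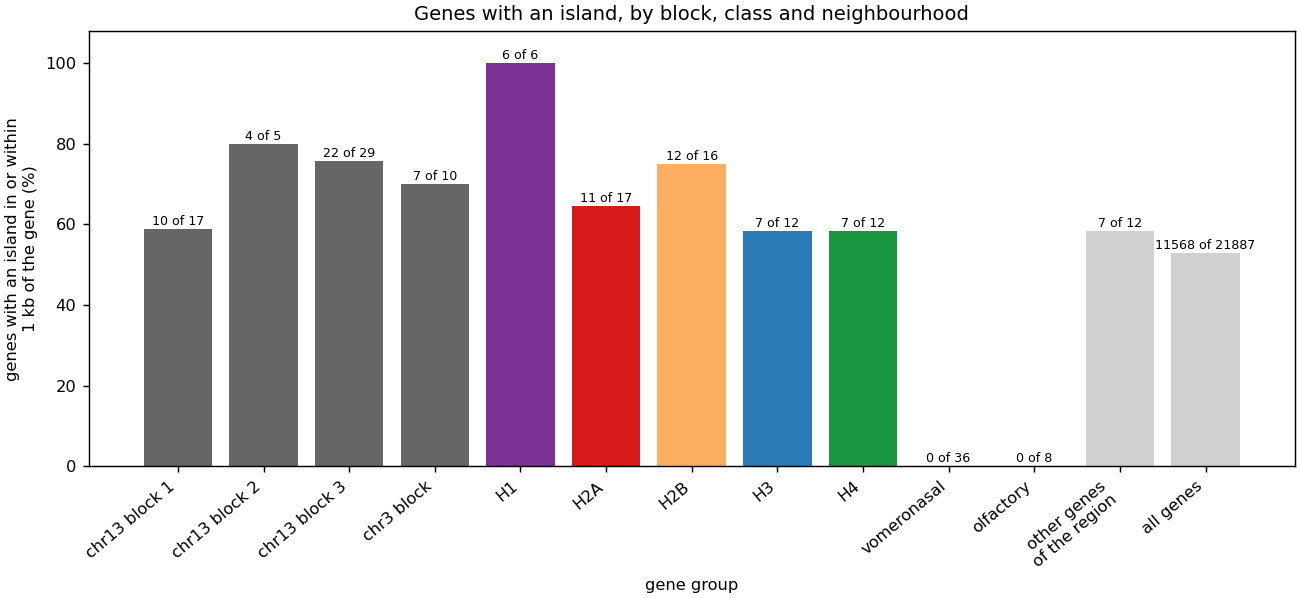
Percentage of genes with an island in the gene or within 1 kb of it, for the 4 histone blocks, the 5 histone classes on chromosomes 3 and 13, the other genes of the chromosome 13 region and all protein-coding genes, with counts above the bars. The receptor genes stand at 0 of 36 and 0 of 8, while the 4 histone blocks shown run from 10 of 17 to 4 of 5, beside 52.9% of all genes, and the testis pair H2bc1 and H2ac1, at 0 of 2, is not drawn.

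Set beside islands with as many peak-side reads, the histone islands did not stand apart. Of the 35, 16 had a fold above the median of all islands in the same read class and 18 lay in the middle part of that class, between its quartiles. The folds of 2 islands, those of H4c3 and of H2ac6 with H2bc4, lay among the lowest 5% of their class, and 0 lay among the highest 5%. With at least 20 peak-side reads, 14 islands at 21 genes remained, and their pooled fold was 1.80 (1.59 to 2.03). No matching values over all islands or genes are given for this minimum.

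**Figure D5:**
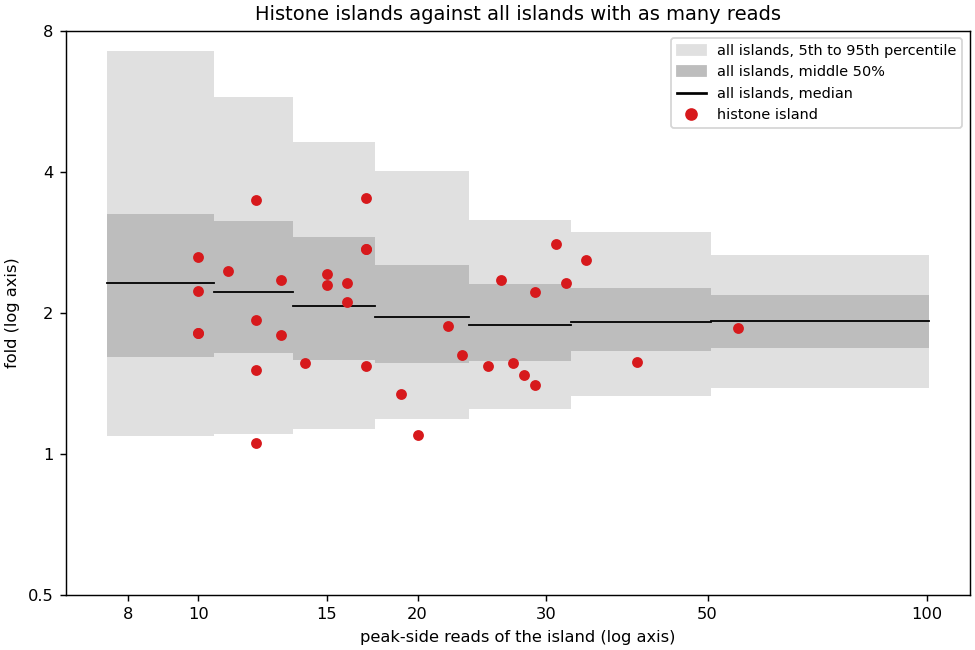
Fold against peak-side reads (both log axes) for the 35 histone islands (red points), over the spread of all islands in 7 read classes (bands and median line). The histone islands lie within the bands, except for 2 below them, at 12 and 20 peak-side reads.

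Genes that act on the histone clusters were counted from lists of their own, and the islands named from each are those with most peak-side reads. Of 11 genes for histone gene transcription and the histone locus body, 10 had an island, beside 53.9% of all protein-coding genes. A called island in the authors' deposited table was found at 9 of the 11, beside 46.3% of all protein-coding genes, and the counts of the other 3 lists are to be read against the same shares. Npat, the activator of the histone locus body, had 76 and 84 reads (fold 2.62, 1.90 to 3.62). That of Pou2f1, which encodes the octamer-binding factor OCT-1, had 72 and 140 (1.49, 1.11 to 2.0). The largest of 4 islands of Ccne1, the cyclin that acts with CDK2 at the start of S phase, lay 10984 bp from the gene and had 61 and 119 (1.49, 1.07 to 2.04). Hinfp, an activator of H4 genes, had 50 and 60 (2.42, 1.63 to 3.58). Gon4l had no island. Of the list's 18 islands, 16 were called in the authors' deposited table, and the only one of Cdk2 was not.

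All 12 listed genes for the processing and decay of histone mRNA had an island, and 9 had one called in the authors' deposited table. Tent4a, a nucleotidyltransferase gene, had 65 and 118 reads (fold 1.60, 1.16 to 2.18), and Slbp, which encodes the stem-loop binding protein, had 47 and 67 (2.03, 1.37 to 3.0). The larger island of Zfp473, whose product works with the U7 particle in cutting the mRNA end, had 46 and 56 (2.38, 1.58 to 3.58). Upf1, an RNA helicase gene of mRNA decay, had 38 and 85 (1.3, 0.860 to 1.92) and was not called in the authors' deposited table.

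Of 10 histone chaperone genes, 9 had an island and 8 a called one in the authors' deposited table, and Atrx had none. Hira, a chaperone of the replacement histone H3.3, had 62 and 85 reads (fold 2.12, 1.5 to 2.97). Asf1b, which hands new H3 and H4 to other chaperones, had 51 and 94 (1.57, 1.1 to 2.24), and Daxx, another H3.3 chaperone, had 51 and 68 (2.18, 1.48 to 3.17). Hat1, which acetylates new H4, had 41 and 35 (3.40, 2.11 to 5.50).

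Of 11 replication-independent histone genes, 9 had an island, each with at least 1 called in the authors' deposited table, and Macroh2a2 and H1f10 had none. This list shares H1f0 and H1f10 with the genes described above. The larger island of H2az1, which encodes the variant H2A.Z, had 49 and 89 reads (fold 1.60, 1.1 to 2.29), and that of H2ax, the variant marked at DNA breaks, had 46 and 56 (2.38, 1.58 to 3.58). H3f3b, an H3.3 gene, and Macroh2a1, which encodes a large H2A variant, had 40 and 64 and 40 and 57 (1.81, 1.19 to 2.73, and 2.04, 1.32 to 3.10), as many peak-side reads as H1f0. Over the 4 lists the median folds of the islands were 2.30, 1.96, 2.12 and 1.92, in the order given, beside 1.93 for the histone clusters and 2.01 for all islands.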

How the data were processed

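DNase-seq of sorted LTi cells was analysed from a single table. The build was mm10 and the tools named were SICER 2.0 and Bowtie2 2.4.2, per the submitters' processing notes. SICER joins enriched windows (here of 200 bp) into islands. The authors deposited whole-number read counts per island for a peak side and a control side, without normalization. They also deposited a p-value, an FDR (q-value) and a fold, the ratio of the 2 sides after the control side is multiplied by 0.345. All 16584 folds, p-values and FDRs were recomputed from the read counts (tolerance 1e-06). The p-value is the Poisson chance of more reads than observed.

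Each island was given to the protein-coding gene whose end lay closest, within 50 kb, in the GRCm38.p6 RefSeq table, and ties kept every gene. An island within 1 kb of an end is a gene-end island. Coordinates are 1-based. An island is called at a deposited FDR under 0.05. The planned genotype test was not run, because the columns are not tied to libraries. The depth of each library is not known from the sources used here. Without molecular identifiers, reads are not independent molecules, and intervals cover counting error only. Python 3.11.15, pandas 2.3.3 and scipy 1.17.1 were used, and the functions were tested on simulated data.

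Genes, lists and the H1 box were chosen with earlier results of these data known. Islands are named in full when among the 12 with most peak-side reads, the 4 largest or 4 smallest folds, or outside chromosome 13, and others shortly. From each gene list up to 4 islands with most peak-side reads, and from the neighbours up to 6 genes, are named. Alternatives varied the distance, the read minimum, the FDR threshold and the scaling of the control side. The values of 1 marker gene are not reported here.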

Additional observations from a re-analysis of the deposited data

How the results depend on the processing

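No paired analysis was possible because neither read column names a library or a replicate number. For the same reason the planned fits between genotypes (each library left out, a block, DESeq2, other filters) were not run.

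Scaled by the reads in all islands, the histone islands had a pooled fold of 0.980 in place of 1.87, a median fold of 1.01 in place of 1.93, and 0 calls in place of 31. Scaled by the median ratio, these were 0.933, 0.963 and 0. By construction these scalings set all islands pooled, or their median, to 1, and they left 9.19% and 6.61% of all islands called. No replicated test stands behind these counts, only the Poisson tail. An FDR under 0.01 in the authors' deposited table left 19 of 35. Histone genes with an island numbered 42, but 21 with at least 20 peak-side reads and 27 with 1 gene per island, and 37 to 44 under the other 5 settings. For the 21 and the 27 no matching share of all protein-coding genes is given. Whether the histone share stays above that of all genes at these settings cannot be read from them. Otherwise the calls were 23 to 29, the pooled fold 1.80 to 1.89 and the median fold 1.74 to 2.02. A single gene per island, start sites, the limit to chromosomes 3 and 13, the Poisson tail including the observed reads (26 of 35 called, beside 75.7% of all islands), and the 1 kb limit for calls and the pooled fold were chosen after seeing the data. Single folds rest on 10 to 55 peak-side reads, which limits each.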

Other observations

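Histone genes that once carried a Hist name but fall outside the symbol rule were not counted above. H2bu2 and H2aw, neighbours on chromosome 11, had islands with 15 and 12 reads (fold 3.63, 1.58 to 8.48) and 26 and 36 reads (2.09, 1.21 to 3.57). H4f16 on chromosome 6 had 20 and 40 reads (1.45, 0.803 to 2.54) and was not called in the authors' deposited table, and H4bc24 had none. A match to the TATA box was found in 23 of 37 windows of histone genes whose start lay in an island. It was found in 11 of 25 whose start did not. For the CCAAT box these counts were 33 of 37 and 18 of 25.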
